A study of Mus musculus with 9 samples.

Results

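The 9 genes described here are the LIN28 axis (Lin28a, Lin28b, Trim71, Hmga2 and Hmga1) and 4 genes for splicing regulators (Esrp1, Esrp2, Mbnl1 and Mbnl2). They were picked by name from the 38293 genes of a count table. Polyadenylated RNA was sequenced from E14 mouse embryonic stem cells, a line of 129/Ola background, in 3 culture states with 3 biological replicates each. The mESC-2i cells (state label Naive) grew long-term in 2i/LIF, that is N2B27 medium with the MEK inhibitor PD0325901, the GSK3 inhibitor CHIR99021 and leukaemia inhibitory factor (LIF). The mESC-ser cells (state label Primed) grew on gelatin in serum with LIF. The EpiLC, or epiblast-like cells, were made from naive cells on fibronectin in N2B27 with activin A, bFGF and KSR. All 9 libraries thus came from 1 line with no genetic change between the groups.

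LIN28A and LIN28B are RNA-binding proteins that hold back the maturation of the microRNA let-7 by binding the loop of its precursor. LIN28A also recruits enzymes that tail this precursor with uridines. Mature let-7 in turn represses messenger RNAs that carry matches to its seed, among them Lin28a, Lin28b, Hmga2 and Trim71 themselves, so the axis is built as a mutual block that flips as embryonic cells differentiate. ESRP1 and ESRP2 promote the exon choices of epithelial cells, whereas MBNL1 and MBNL2 favour the splicing patterns of differentiated tissues. Let-7 itself and the splicing of transcripts were not measured in these libraries, which give 1 count per gene.

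The sequences of the axis are shown first, the seed of let-7 and then its matches in the 9 genes. All 11 mouse let-7 and miR-98 hairpins in RefSeq (build GRCm38.p6) gave a 5p strand with the same seed, bases 2 to 8, shown in capitals in these 4 members of the family:
let-7a-5p: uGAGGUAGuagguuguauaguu
let-7d-5p: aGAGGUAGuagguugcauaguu
let-7g-5p: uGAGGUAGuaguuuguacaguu
miR-98-5p: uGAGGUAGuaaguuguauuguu
The motif GGAG, known as the LIN28 binding motif, lay in the loop of 8 of the 11 hairpins. The let-7a-1 and let-7c-1 loops hold it (capitals), and the let-7c-2 loop does not:
let-7a-1 loop: uuagggucacacccaccacugGGAGauaa
let-7c-1 loop: uagaguuacacccugGGAGuuaa
let-7c-2 loop: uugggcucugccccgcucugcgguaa

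The reverse complement of the seed, CTACCTC, was searched on the sense strand of the longest annotated 3′ UTR of each gene (GENCODE M21, GRCm38). Each of the 5 LIN28 axis genes held at least 1 match, 15 in all, and the 4 splicing regulators held 0. Among 20478 protein-coding genes with a 3′ UTR, 10.2% held a match, and 21.1% did so among those with a 3′ UTR of at least 2000 bases. Lin28b, Hmga2 and Trim71 each held 4 matches, a number reached by 12 genes in all, Lin28a held 2 and Hmga1 held 1. A match says only that the letters are there. Lin28a, Lin28b, Hmga2 and Trim71 were known as let-7 targets beforehand, so their matches are no independent support for the 2 sets. The first match of each of the 4 leading genes is printed 5′ to 3′ on the minus strand, with the match in capitals, along with the pair of neighbouring matches far down the 3′ UTR of Trim71:
Lin28b, chr10:45381020-45381041: cgggcgggaagtCTACCTCatg
Hmga2, chr10:120364222-120364243: gacattcaatttCTACCTCagc
Lin28a, chr4:134005187-134005208: cagcctgttgaaCTACCTCatt
Trim71, chr9:114512470-114512491: attgcctaagtcCTACCTCagc
Trim71, chr9:114509045-114509066: agtatggattttCTACCTCaat
Trim71, chr9:114509019-114509040: gcaaaaagttgtCTACCTCacg
The Lin28b and Hmga2 matches shown start 36 and 58 bases into the 3′ UTR. In Trim71, all 4 matches were followed by an A, the base that faces the first base of let-7, whereas this held for 1 of 4 matches in Lin28b, 1 of 4 in Hmga2, 2 of 2 in Lin28a and 0 of 1 in Hmga1.

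**Figure D1:**
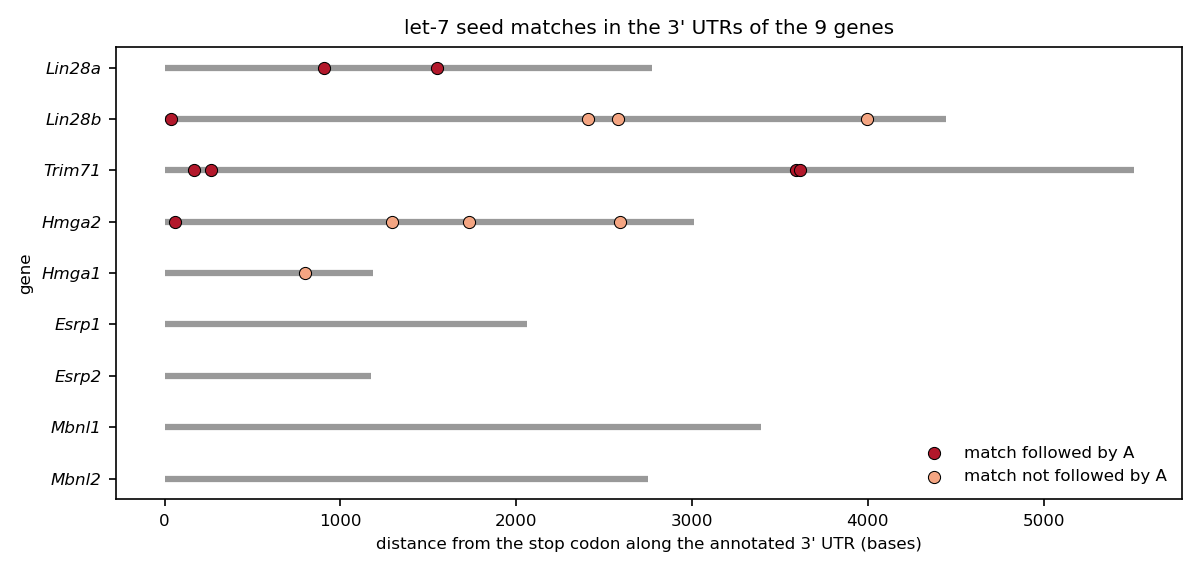
Matches to the let-7 seed along the longest annotated 3′ UTR of each gene. The x axis is the distance from the stop codon in bases, the grey bar spans the 3′ UTR, and each point is 1 match, dark where the next base is A. The 15 matches lie in the 5 upper genes and the bars of the 4 splicing regulators carry none.

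Total counts ran from 7187576 to 16829549 per library, and all 9 genes passed the filter on low counts in every comparison. Values are given as CPM (counts-per-million after TMM scaling over the 9 libraries), and levels of different genes are compared only as RPKM, that is CPM per kilobase of annotated exon. A gene was called in a comparison where its Benjamini-Hochberg adjusted p from edgeR's quasi-likelihood test, taken over all tested genes, was under 0.05 and its log2 fold change was over 0.5 in either direction. The states differed widely, so that 56.2% of tested genes were called for mESC-ser against mESC-2i, 69.8% for EpiLC against mESC-2i and 73.3% for EpiLC against mESC-ser. The groups did not overlap in CPM for 70.7%, 81.8% and 85.7% of tested genes, respectively. Changes from mESC-2i to either other state share the same 3 mESC-2i libraries. In bulk RNA, fewer cells expressing a gene and less RNA per cell cannot be told apart.

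Against mESC-2i, mESC-ser cells had more Lin28a, Lin28b, Trim71, Esrp1 and Mbnl2 RNA, and no member was called lower. The count was 5 of 9 members higher and 0 lower, beside 25.9% of tested genes called higher and 30.3% called lower. EpiLC had more Lin28a, Lin28b, Hmga1 and Esrp1 and less Trim71, Hmga2 and Esrp2 than mESC-2i, which made 4 members higher and 3 lower beside 32.0% and 37.8% of tested genes. Compared with mESC-ser, EpiLC had more Hmga1 and less Trim71, Hmga2, Esrp2 and Mbnl2. That was 1 member higher and 4 lower, where 35.5% of tested genes were higher and 37.8% lower. The groups did not overlap in CPM for 6, 7 and 8 of the 9 members, in the same order. In either direction 5, 7 and 5 of the 9 were called, which is no more than 1 member above the share of all tested genes in any comparison. The results lie in which members moved, which way and how far.

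**Figure D2:**
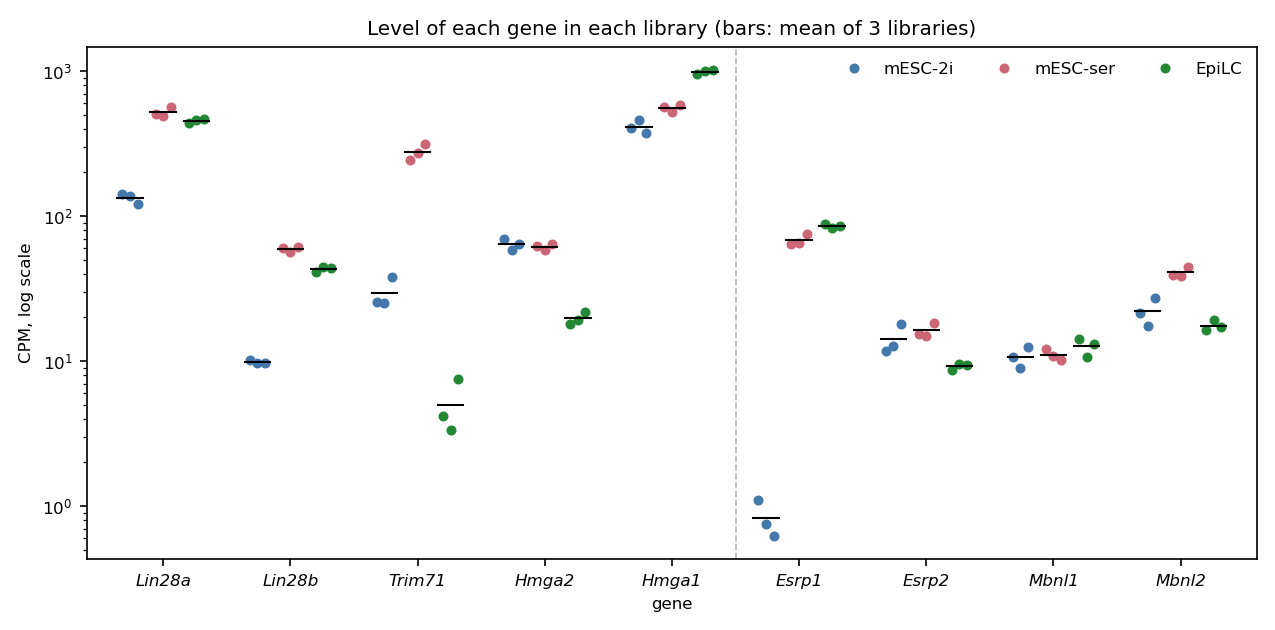
CPM of the 9 genes in each library on a log axis. Each point is 1 library, colours mark the 3 culture states, black bars give the mean of 3 libraries, and the dashed line parts the LIN28 axis from the splicing regulators. Esrp1 in mESC-2i (at most 1.11 CPM) and Trim71 in EpiLC (3.36 to 7.54 CPM) lie far from the same genes in the other states.

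Lin28a (chr4:134003330-134018841, minus strand) was the more abundant LIN28 gene in every library. Its CPM was 142, 138 and 122 in the mESC-2i libraries, 507, 489 and 565 in those of mESC-ser, and 440, 460 and 470 in those of EpiLC. The 3 mESC-2i libraries lay far below the other 6. Lin28a was 3.73-fold higher in mESC-ser than in mESC-2i (log2 fold change 1.90 ± 0.11 SE, edgeR adjusted p = 2.79e-07) and 3.36-fold higher in EpiLC than in mESC-2i (1.75 ± 0.10 SE, edgeR adjusted p = 8.47e-08). EpiLC and mESC-ser lay apart in CPM but close together, and their difference was not called (log2 fold change -0.10 ± 0.08 SE, edgeR adjusted p = 0.242).

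Lin28b (chr10:45376620-45486395, minus strand) encodes the paralogue of LIN28A, which can act in the nucleus on the primary let-7 transcript. It was measured at 10.1, 9.67 and 9.74 CPM in mESC-2i, at 60.4, 56.4 and 61.1 CPM in mESC-ser and at 41.5, 44.6 and 43.8 CPM in EpiLC. Its means had the same order of states as those of Lin28a, and its 3 states did not overlap. The fold over mESC-2i was 5.81 in mESC-ser (log2 fold change 2.54 ± 0.11 SE, edgeR adjusted p = 5.12e-08) and 4.35 in EpiLC (2.12 ± 0.11 SE, edgeR adjusted p = 5.05e-08; 2.80 with an offset for exonic length and GC content). EpiLC against mESC-ser gave -0.37 ± 0.08 SE on the log2 scale, short of the fold threshold though the adjusted p was 0.000689. The direction of this last difference depended on the processing. With the same offset it became 0.84 and was called higher in EpiLC, and with scaling by total counts it was -0.71 and called lower.

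Trim71 (chr9:114507133-114564369, minus strand) encodes a ubiquitin ligase and RNA repressor, a classical let-7 target of early embryonic cells, and showed the widest swing of the LIN28 axis genes. The mESC-2i libraries had 25.5, 25.3 and 38.0 CPM, the mESC-ser libraries 245, 273 and 312 CPM, and the EpiLC libraries 4.16, 3.36 and 7.54 CPM. The 3 states formed 3 separate levels, high in serum, intermediate in 2i and low in EpiLC. The EpiLC level rested on 31, 31 and 60 counts. Trim71 was 8.93-fold higher in mESC-ser than in mESC-2i (log2 fold change 3.16 ± 0.17 SE, edgeR adjusted p = 1.99e-07) and 6.04-fold lower in EpiLC than in mESC-2i (-2.59 ± 0.27 SE, edgeR adjusted p = 7.19e-06). The fall was -1.90 with the length and GC offset. The 2 comparisons with mESC-2i therefore went opposite ways, while Lin28a and Lin28b rose in both. Between EpiLC and mESC-ser the fold was 52.4 (log2 fold change -5.71 ± 0.18 SE, edgeR adjusted p = 7.1e-14; -4.94 with the offset), and 0.775% of tested genes had a lower value in that comparison.

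Hmga2 (chr10:120361275-120476469, minus strand) and Hmga1 (chr17:27556497-27563674, plus strand) encode architectural proteins of chromatin that bind AT-rich DNA. Hmga2 was measured at 69.9, 58.3 and 64.5 CPM in 2i, 61.9, 58.0 and 64.2 CPM in serum, and 18.1, 19.2 and 21.9 CPM in EpiLC. The naive and serum libraries overlapped, and all EpiLC libraries lay below them. It was not called for mESC-ser against mESC-2i (log2 fold change -0.12 ± 0.11 SE, edgeR adjusted p = 0.351). In EpiLC, Hmga2 was 3.29-fold lower than in mESC-2i (-1.72 ± 0.12 SE, edgeR adjusted p = 3.97e-07) and 2.93-fold lower than in mESC-ser (-1.55 ± 0.10 SE, edgeR adjusted p = 2.08e-10). The fall was smaller but still called with the length and GC offset, at -1.14 and -0.76.

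Hmga1 went the other way, with 404, 461 and 376 CPM in 2i, 562, 525 and 588 CPM in serum and 951, 1002 and 1014 CPM in EpiLC. The 3 states did not overlap. EpiLC had 2.36-fold more Hmga1 than mESC-2i (log2 fold change 1.24 ± 0.10 SE, edgeR adjusted p = 1.47e-06) and 1.88-fold more than mESC-ser (0.91 ± 0.08 SE, edgeR adjusted p = 1.2e-08). The difference between mESC-ser and mESC-2i stayed under the fold threshold (0.38 ± 0.11 SE, edgeR adjusted p = 0.0101). With the length and GC offset that difference was 0.64 and called, and the one between EpiLC and mESC-ser was 0.28 and not called. Hmga1b (chr11:120762794-120764419, plus strand), a near-identical copy, was listed at 443 ± 41.2, 606 ± 38.1 and 1032 ± 22.6 CPM (SD, n = 3) in mESC-2i, mESC-ser and EpiLC, almost the values of Hmga1. How reads that fit both copies were counted is not given in the sources used here, so the split between them is uncertain.

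Esrp1 (chr4:11331933-11386783, minus strand) gave the largest fold change of the 9 genes in both comparisons with mESC-2i. The mESC-2i libraries held 9, 9 and 8 counts, or 1.11, 0.750 and 0.624 CPM, whereas mESC-ser had 64.5, 65.3 and 75.2 CPM and EpiLC 87.6, 83.2 and 85.4 CPM. Esrp1 RNA was thus near the detection limit in 2i and plain in both other states. The fold over mESC-2i was 82.0 in mESC-ser (log2 fold change 6.36 ± 0.19 SE, edgeR adjusted p = 8.1e-09) and 105 in EpiLC (6.71 ± 0.16 SE, edgeR adjusted p = 5.42e-10). In each of these comparisons 99.8% of tested genes had a lower value. EpiLC stood slightly above mESC-ser in every library, by 0.41 ± 0.08 SE on the log2 scale (edgeR adjusted p = 0.000304), which was under the fold threshold. This difference was 0.07 with scaling by total counts (edgeR adjusted p = 0.484) and 1.00, and called, with the length and GC offset.

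Esrp2 (chr8:106130319-106136974, minus strand), whose protein shares the targets of ESRP1, did not follow it. Its CPM was 11.7, 12.8 and 18.0 in 2i, 15.5, 15.0 and 18.3 in serum and 8.72, 9.55 and 9.42 in EpiLC. The naive and serum libraries overlapped and the EpiLC libraries lay below. No call was made for mESC-ser against mESC-2i (log2 fold change 0.14 ± 0.17 SE, edgeR adjusted p = 0.507). Esrp2 was 1.67-fold lower in EpiLC than in mESC-ser (-0.74 ± 0.13 SE, edgeR adjusted p = 6.04e-05) and 1.56-fold lower than in mESC-2i (-0.64 ± 0.18 SE, edgeR adjusted p = 0.00722). The last call was lost without mESC-2i replicate 3, the highest of its group (-0.43), and with the length and GC offset (-0.40).

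Mbnl1 (chr3:60472830-60629750, plus strand) and Mbnl2 (chr14:120275669-120431697, plus strand) encode muscleblind-like proteins that bind pre-mRNA directly. Mbnl1 had 10.6, 8.92 and 12.6 CPM in 2i, 12.1, 10.9 and 10.2 CPM in serum, and 14.2, 10.7 and 13.1 CPM in EpiLC. The 3 states overlapped, and it was called in no comparison, with log2 fold changes of -0.02 ± 0.16, 0.22 ± 0.17 and 0.28 ± 0.14 (SE; edgeR adjusted p = 0.934, 0.268 and 0.0704). Its annotated exons span 18717 bases, the most of the 9 genes, and it was the member most moved by the length and GC offset. Under the offset it was called in all 3 comparisons, lower in mESC-ser than in mESC-2i (-0.91) and higher in EpiLC than in mESC-2i (1.15) and mESC-ser (2.07).

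Mbnl2 had 21.6, 17.6 and 27.4 CPM in 2i, 39.5, 38.9 and 44.8 CPM in serum and 16.4, 19.1 and 17.2 CPM in EpiLC. The serum libraries lay above all others, and the naive and EpiLC libraries overlapped. Mbnl2 was 1.77-fold higher in mESC-ser than in mESC-2i (log2 fold change 0.83 ± 0.16 SE, edgeR adjusted p = 0.00103) and 2.2-fold lower in EpiLC than in mESC-ser (-1.14 ± 0.105 SE, edgeR adjusted p = 2.81e-08). EpiLC against mESC-2i was not called (-0.36 ± 0.17 SE, edgeR adjusted p = 0.0746), but was at -0.70 and called lower with scaling by total counts, and at 0.49, the opposite direction, with the length and GC offset. With the length and GC offset the first difference was 0.46 and the difference between EpiLC and mESC-ser was 0.01, so neither was called.

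**Figure D3:**
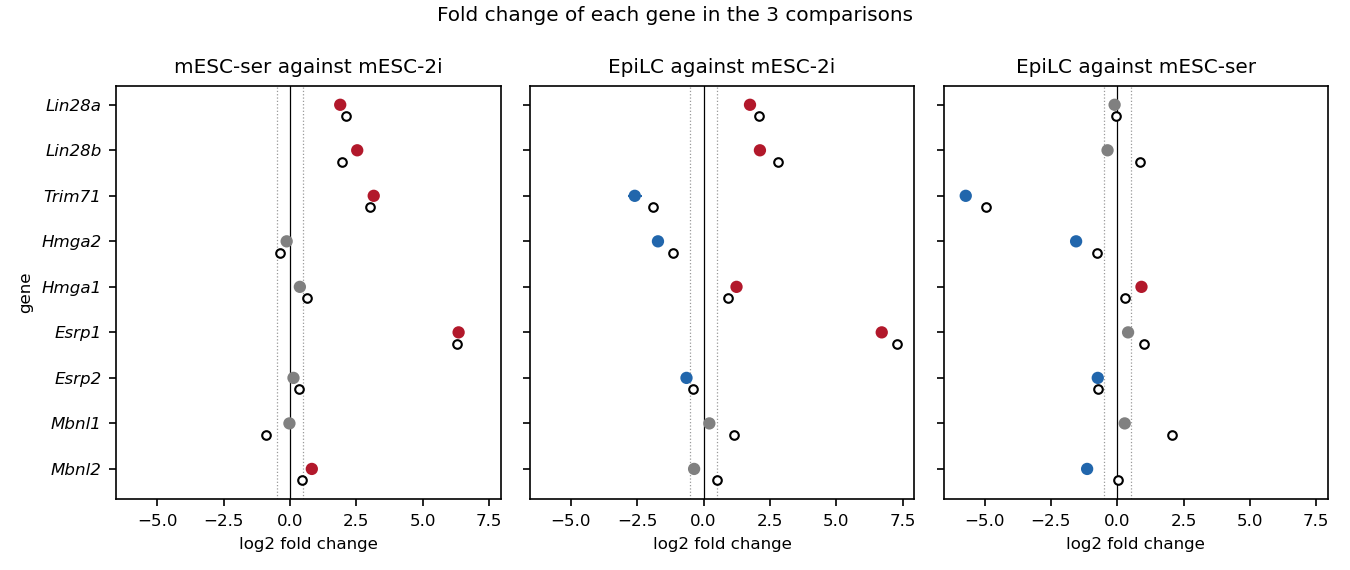
Log2 fold change of the 9 genes in the 3 comparisons. Filled points are the edgeR estimates with bars of 1 SE (red called higher, blue called lower, grey not called), open points are the estimates with the length and GC offset, and dotted lines mark the fold threshold of 0.5. Esrp1 lies beyond 6 in both comparisons with mESC-2i, Trim71 lies at -5.71 for EpiLC against mESC-ser, and the open points of Mbnl1 lie farthest from the filled ones.

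The ratio between paralogues was taken in each library from RPKM. With 3 libraries against 3 the two-sided exact permutation test cannot go below p = 0.10, and each of the 12 differences in ratio reached that value with groups that did not overlap, so the ratios are given as a description. Esrp2 exceeded Esrp1 in 2i, at log2 ratios of 3.94, 4.64 and 5.39, and was below it in serum, at -1.52, -1.58 and -1.50, and in EpiLC, at -2.79, -2.58 and -2.64. The mean ratio of Esrp2 to Esrp1 thus ran from 25.2 in mESC-2i to 0.346 in mESC-ser and 0.157 in EpiLC. The dominant ESRP gene was Esrp2 in mESC-2i and Esrp1 in the other states.

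The other pairs kept their order in every state. Lin28b stood at 0.0323 of Lin28a in 2i, 0.0503 in serum and 0.0418 in EpiLC, with log2 ratios of -4.95 ± 0.10, -4.31 ± 0.07 and -4.58 ± 0.03 (SD, n = 3). Lin28a was therefore the main LIN28 transcript throughout. The order of the states for this ratio depended on the processing. Taken from the fold changes with the length and GC offset, the difference in log2 ratio was -0.15 for mESC-ser against mESC-2i (0.64 without it) and 0.87 for EpiLC against mESC-ser (-0.27 without it). Hmga2 to Hmga1 went from -4.36 ± 0.26 in 2i and -4.86 ± 0.01 in serum to -7.32 ± 0.10 in EpiLC (log2, SD, n = 3), with the caution on Hmga1b given above. Mbnl2 to Mbnl1 was 1.69 ± 0.07, 2.54 ± 0.22 and 1.12 ± 0.32 on the same scale, highest in mESC-ser.

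**Figure D4:**
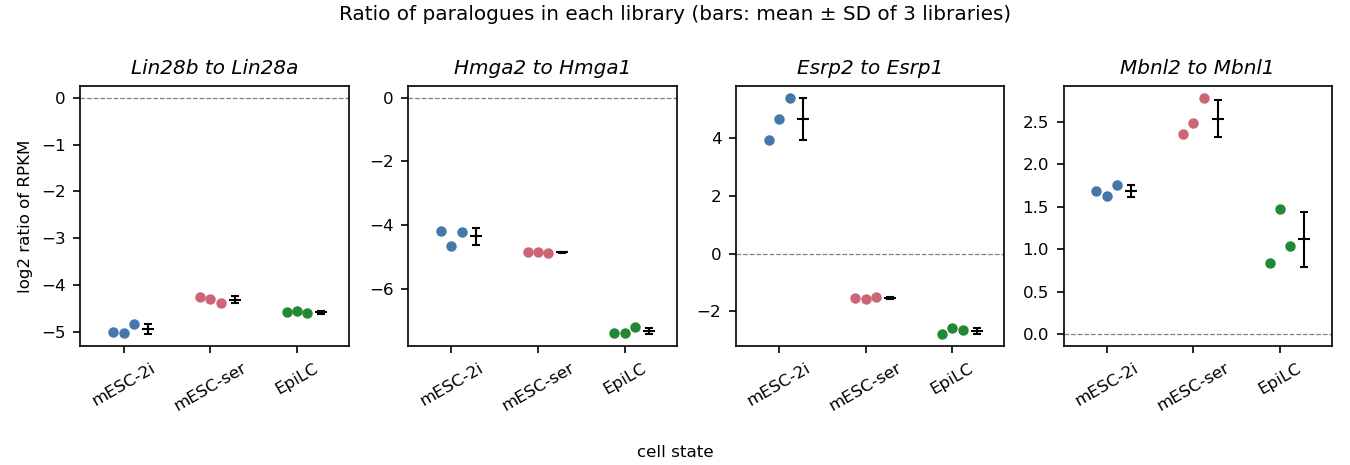
Log2 ratio of RPKM for 4 pairs of paralogues in each library, with the mean and SD of 3 libraries beside the points; each panel has its own y axis and the dashed line marks equal levels. The Esrp2 to Esrp1 ratio crosses that line, from a mean of 4.65 in mESC-2i to -1.53 in mESC-ser and -2.67 in EpiLC, and the other 3 pairs do not.

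Ranked by RPKM, Hmga1 and Lin28a came first and next in all 3 states, at 195 ± 20.3 and 33.6 ± 2.59 in 2i, 263 ± 14.9 and 130 ± 9.89 in serum, and 465 ± 15.8 and 114 ± 3.88 in EpiLC (SD, n = 3). Below them the order changed. In mESC-2i, Hmga2 (9.48 ± 0.856) was followed by Esrp2 (3.27 ± 0.778) and Trim71 (3.18 ± 0.780), whose libraries overlapped, then Mbnl2 (1.85 ± 0.413), Lin28b (1.08 ± 0.0233), Mbnl1 (0.572 ± 0.0993) and Esrp1 (0.131 ± 0.0396). In mESC-ser, Trim71 (29.7 ± 3.63) and Esrp1 (10.8 ± 0.938) moved above Hmga2 (9.07 ± 0.464) and Lin28b (6.54 ± 0.280), and Esrp2 (3.75 ± 0.408) and Mbnl2 (3.43 ± 0.273) overlapped above Mbnl1 (0.590 ± 0.0527). In EpiLC, Esrp1 (13.5 ± 0.352) was followed by Lin28b (4.78 ± 0.179), Hmga2 (2.91 ± 0.284), Esrp2 (2.13 ± 0.102) and Mbnl2 (1.46 ± 0.116), and Trim71 (0.538 ± 0.238) came last, overlapping Mbnl1 (0.677 ± 0.0949). Trim71 and Esrp1 thus covered the widest range of ranks.

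The proteins that work with LIN28 on let-7 and the microRNA machinery were read from a list of 18 genes. For mESC-ser against mESC-2i 8 rose and 4 fell, for EpiLC against mESC-2i 2 rose and 9 fell, and for EpiLC against mESC-ser 2 rose and 10 fell of the 17 tested. The median log2 fold changes were 0.41, -0.47 and -0.55, beside -0.043, -0.109 and -0.068 over all tested genes. For this list and those that follow, the shares of all tested genes called higher and lower were 25.9% and 30.3%, 32.0% and 37.8%, and 35.5% and 37.8%. Within a list, the largest rise or fall is that among called genes whose groups lay apart and whose higher group averaged 100 counts or more. Tut4, which encodes the uridylyltransferase that LIN28A recruits to the let-7 precursor, had mean CPM of 45.2, 74.5 and 12.8 in mESC-2i, mESC-ser and EpiLC, and so rose with Lin28a in serum (0.66 ± 0.14 SE, and 0.18 with the length and GC offset) and fell in EpiLC, where Lin28a rose over mESC-2i. Dis3l2, the nuclease that degrades the tailed precursor, fell in both mESC-ser (log2 fold change -0.99 ± 0.11 SE) and EpiLC (-1.33 ± 0.15 SE) against mESC-2i. Ago2, the slicing Argonaute, had the largest rise of the list in mESC-ser (1.72 ± 0.14 SE) and the largest fall from mESC-ser to EpiLC (-2.82 ± 0.11 SE). Msi1, an RNA-binding protein that can act with LIN28 on let-7, had log2 fold changes against mESC-2i of -2.66 in mESC-ser and -2.10 in EpiLC, while Ago4, with fewer counts, fell more in EpiLC (-3.35). After the length and GC offset the 2 EpiLC comparisons gave 7 higher and 4 lower in each, so the excess of lower calls did not hold under it.

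Of 30 genes known as let-7 targets, 29 were tested and 22 held the seed match (73.3%). For mESC-ser against mESC-2i 11 rose and 3 fell, for EpiLC against mESC-2i 10 rose and 11 fell, and for EpiLC against mESC-ser 5 rose and 17 fell, with medians of 0.43, 0.09 and -0.69. The shares higher and lower were 37.9% and 10.3%, 34.5% and 37.9%, and 17.2% and 58.6%, of which those for EpiLC against mESC-2i are close to the shares of all tested genes. Myc, whose 3′ UTR held 0 matches, led the rises against mESC-2i, with a log2 fold change of 3.98 ± 0.13 SE in mESC-ser and 2.66 ± 0.12 SE in EpiLC. Igf2bp1, an RNA-binding protein with 4 matches, had 344 ± 29.5, 991 ± 75.1 and 422 ± 13.0 CPM (SD, n = 3) in mESC-2i, mESC-ser and EpiLC, high in serum as Trim71 was, but not called between EpiLC and mESC-2i. With the length and GC offset its log2 fold change for EpiLC was 1.04 against mESC-2i (0.28 without it). Against mESC-ser it was -0.25 (-1.15 without the offset), under the fold threshold. Nr6a1, an orphan nuclear receptor that held 8 matches, the most of any gene, had 19.6 ± 2.16, 127 ± 12.8 and 71.5 ± 1.27 CPM. EpiLC was lower than mESC-ser (log2 fold change -0.75 ± 0.09 SE), but this was 0.36 with the length and GC offset, a turn of direction as for Lin28b. Ccnd2, the gene of cyclin D2, fell most in EpiLC, with log2 fold changes of -4.94 against mESC-2i and -4.96 against mESC-ser, although its 3′ UTR held 0 matches. With the length and GC offset the counts depended on the processing. For mESC-ser against mESC-2i 10 rose and 4 fell, and for EpiLC against mESC-2i 16 rose and 8 fell. For EpiLC against mESC-ser 11 rose and 12 fell. The medians under the offset were 0.28, 0.64 and -0.08 in the same order.

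Over all genes with a seed match, 30.9% of 1597 tested were called higher and 25.8% lower for mESC-ser against mESC-2i. The shares were 23.3% higher and 44.8% lower for EpiLC against mESC-2i, and 23.7% higher and 46.7% lower for EpiLC against mESC-ser. For all protein-coding genes with a 3′ UTR the shares higher and lower were 27.1% and 29.1%, 28.8% and 39.3%, and 31.9% and 38.8%. The medians of the matched genes were 0.073, -0.331 and -0.405 (log2), and with the length and GC offset they were 0.011, 0.118 and 0.125, close to the -0.002, 0.165 and 0.156 of all genes with a 3′ UTR.

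Of 10 genes listed as TRIM71 targets, 9 were tested, among them Ago2, which is also counted in the list of microRNA machinery above. For mESC-ser against mESC-2i, where Trim71 was higher, 5 rose and 3 fell, with a median of 1.21. For EpiLC against mESC-ser, where Trim71 was far lower, 0 rose and 7 fell (median -1.16), and for EpiLC against mESC-2i 3 rose and 6 fell (median -1.23). For serum over 2i the shares were 55.6% higher and 33.3% lower, and they were 0.00% higher and 77.8% lower for EpiLC against mESC-ser, and 33.3% and 66.7% for EpiLC against mESC-2i. Corrected for length and GC, the 3 counts in this order were 5 rose and 4 fell (median 1.26), 0 rose and 5 fell (median -0.74), and 3 rose and 5 fell (median -0.76). Cdkn1a, the gene of the cell cycle inhibitor p21, was lower in mESC-ser (log2 fold change -3.04 ± 0.10 SE) and in EpiLC (-2.83 ± 0.10 SE) than in mESC-2i, at 339, 42.9 and 48.3 mean CPM. Egr1, an immediate early gene of ERK signalling, rose by 5.64 ± 0.19 SE and 4.35 ± 0.27 SE in the same comparisons, from 6 to 10 counts in mESC-2i. Inhbb, the gene of the activin beta B subunit, had the largest fall from mESC-ser to EpiLC (-8.07 ± 0.30 SE). Its EpiLC level rested on 0 to 2 counts per library (0.117 mean CPM), so the size of this fall is uncertain. In the comparison of EpiLC with mESC-ser, the called genes of the list and Trim71 itself were thus all lower in EpiLC.

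Transcripts that host microRNAs were counted as well. Mir17hg, the host of the miR-17-92 cluster, rose in mESC-ser (log2 fold change 0.96) and in EpiLC (0.84 ± 0.31 SE) over mESC-2i. Huwe1, whose introns hold let-7f-2 and miR-98, rose in mESC-ser (1.45 ± 0.18 SE) and fell from there in EpiLC (-1.85 ± 0.09 SE, and -0.17 with the length and GC offset, which was not called). Mir99ahg, the host of let-7c-1, had 0 counts in all 9 libraries, and Larp7, host of miR-302-367, was called in no comparison. A host transcript does not give the level of its mature microRNA.

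Around the ESRP and MBNL genes, 37 other splicing regulators were listed, of which 33, 34 and 33 were tested in the 3 comparisons. For mESC-ser against mESC-2i 10 rose and 4 fell, for EpiLC against mESC-2i 5 rose and 16 fell, and for EpiLC against mESC-ser 6 rose and 18 fell, with medians of 0.25, -0.44 and -0.53. Rbm47, an epithelial regulator, rose most in mESC-ser (log2 fold change 1.81 ± 0.15 SE) but, unlike Esrp1, was lower in EpiLC than in mESC-2i (-1.01, and -0.40 with the offset), with mean CPM of 11.9, 43.8 and 6.01. Qk, which encodes the quaking proteins of mesenchymal and glial splicing, fell most from mESC-ser to EpiLC (-2.83 ± 0.12 SE). The largest falls against mESC-2i were those of Nova1 in mESC-ser (-1.62 ± 0.24 SE) and Nova2 in EpiLC (-2.89 ± 0.22 SE). Nova2 was not called in mESC-ser (-0.37). In EpiLC, Celf4 rose over mESC-2i (1.62 ± 0.14 SE) and Srsf3 over mESC-ser (0.95 ± 0.10 SE). Genes with fewer counts moved more in some of these comparisons. Mbnl3, the remaining muscleblind gene, had 3.31, 8.04 and 3.39 mean CPM, highest in mESC-ser as for Mbnl2. Under that offset the list gave 7 higher and 11 lower, 13 and 9, and 12 and 8.

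Genes whose exons ESRP or MBNL proteins regulate were listed too, for their total RNA only. Of the 19, 20 and 18 tested, 6 rose and 5 fell, 1 rose and 11 fell, and 2 rose and 11 fell, with medians of 0.19, -0.69 and -0.94. These were 31.6% and 26.3%, 5.00% and 55.0%, and 11.1% and 61.1% of those tested. Corrected for length and GC, 5 rose and 5 fell, 6 rose and 8 fell, and 5 rose and 8 fell, with medians of 0.14, -0.14 and -0.36. Enah, the actin regulator MENA, had 124, 733 and 43.2 mean CPM and the largest fall from mESC-ser to EpiLC (log2 fold change -4.00 ± 0.09 SE). Foxp1 rose in mESC-ser (3.69 ± 0.15 SE) and in EpiLC (1.56 ± 0.15 SE) over mESC-2i. Fgfr2, the standard example of an ESRP-regulated exon switch, had 5.02, 19.4 and 5.21 mean CPM, and Cd44 was called in no comparison at 2.43, 2.90 and 2.76 mean CPM. The muscle gene Ldb3 fell against mESC-2i, with log2 fold changes of -2.83 for mESC-ser and -2.24 for EpiLC. Of the genes with fewer counts, Tnnt2 (-4.58 and -2.59) and Nrap (-3.78 and -5.21) fell more in both comparisons and Clcn1 (-3.67) in EpiLC.

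Of the other high mobility group genes, 10 were tested, and 1 rose and 2 fell for mESC-ser against mESC-2i. In EpiLC, 4 rose and 2 fell against mESC-2i, and 5 rose and 1 fell against mESC-ser, Hmga1b among those that rose. With the length and GC offset 3 rose and 3 fell, 4 rose and 1 fell, and 4 rose and 0 fell, in the same order. Hmgn1, a nucleosome-binding protein, led the rises (log2 fold change 1.88 ± 0.12 SE over mESC-2i and 1.63 ± 0.08 SE over mESC-ser). Hmgb3 fell by 1.72 in both states against mESC-2i on the log2 scale. Hmgb1 had 49.0, 42.0 and 102 mean CPM and was, as Hmga1, higher in EpiLC than in both other states, where Hmga2 was lower.

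**Figure D5:**
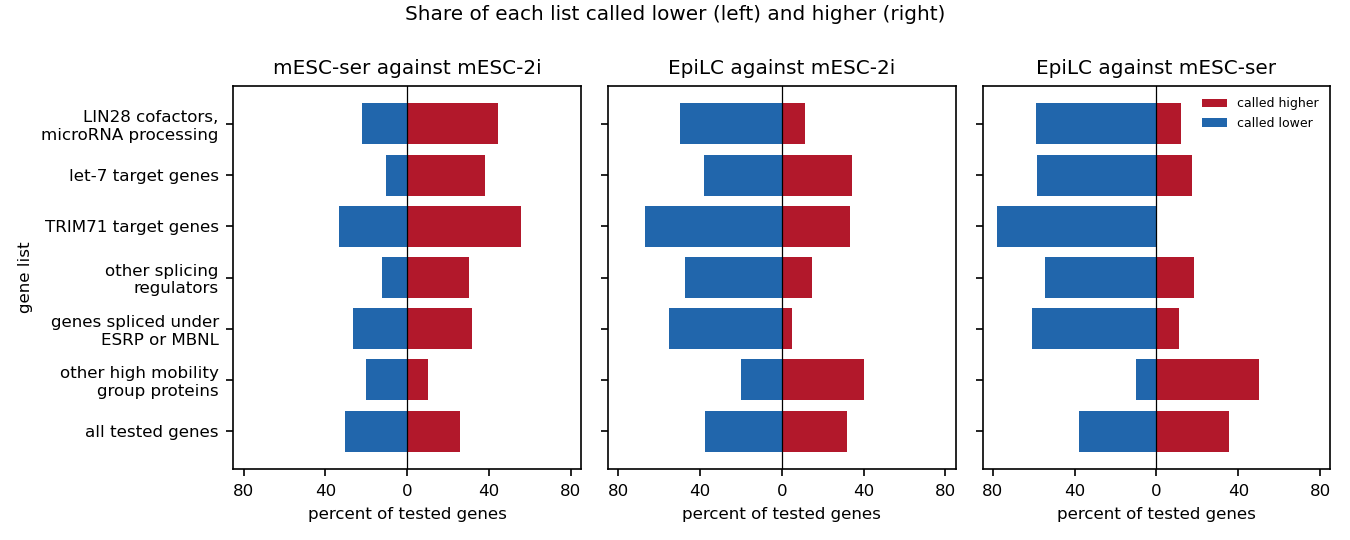
Percent of the tested genes of each list called lower (blue, to the left) and higher (red, to the right) in the 3 comparisons, with all tested genes as the lowest bar. Lists hold 9 to 34 tested genes. The TRIM71 list has 0.00% higher and 77.8% lower for EpiLC against mESC-ser, where all tested genes have 35.5% and 37.8%.

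The genes with the pattern most like each member were taken by the Euclidean distance between log2 CPM, centred on each gene's mean over the 9 libraries, among 9030 protein-coding genes with a mean of at least 10 CPM. The nearest were Rassf3 and Ccdc40 to Lin28a (distance 0.21 and 0.27), Bcar1 and Basp1 to Lin28b (0.35 and 0.37), Bcas3 and Snx4 to Hmga2 (0.24 and 0.28), and Hmga1b and Kars to Hmga1 (0.09 and 0.17). For the splicing regulators they were Ubn1 and Tnk2 to Esrp2 (0.18 and 0.19), Rmi1 and Hnrnpdl to Mbnl1 (0.27 for each), and Cdk5rap2 and Gprasp1 to Mbnl2 (0.23 and 0.26). The distance grows with the size of a swing, and Trim71 and Esrp1 had the widest. The nearest to Trim71 was Gm38394 (1.01), then Prrc2c (1.18), and the nearest to Esrp1 was Wt1 (0.64), then Slc23a1 (1.30).

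Marker genes were read in the same libraries. The summed CPM of 6 naive markers was 2872 to 2916 in mESC-2i, 1535 to 1579 in mESC-ser and 89.3 to 102 in EpiLC, and that of 4 formative markers was 71.8 to 80.3, 609 to 711 and 1620 to 1709. The mESC-ser libraries, labelled Primed, thus kept more of the naive markers than EpiLC. Sums for 4 general pluripotency markers were 1366 to 1749 in mESC-2i, 2114 to 2187 in mESC-ser and 2077 to 2214 in EpiLC. Their members diverged, with Sox2 at 468, 509 and 61.8 mean CPM and Utf1 at 27.9, 341 and 901 mean CPM. Sums for 7 fibroblast markers were 52.1 to 56.7, 62.9 to 82.7 and 42.2 to 46.4, but different genes made them up. Col1a1 (22.5, 49.6 and 1.47 mean CPM), Col1a2, Col3a1 and Pdgfrb were lowest in EpiLC. Thy1 (3.05, 4.41 and 29.5 mean CPM) and Dcn were highest there. Sums for 6 trophectoderm markers were 98.0 to 110, 52.9 to 61.0 and 17.6 to 18.1. Tfap2c (65.5, 34.9 and 1.12 mean CPM), Cdx2 and Elf5 had this order. Krt7 (5.89, 4.40 and 6.60 mean CPM), Gata3 (1.31, 5.28 and 0.0838) and Eomes (15.6, 8.65 and 9.80) departed from it. Lum and Elf5 were at 0 in EpiLC, but also near 0 in mESC-2i (0.109 mean CPM for each) and mESC-ser (0.0233 and 0.0467). Sums for 6 primitive endoderm markers were 20.2 to 23.9, 32.2 to 33.0 and 7.54 to 10.3, the order of the states for Trim71. Gata4 (4.61, 3.39 and 1.15 CPM) and Foxa2 (1.90, 0.830 and 1.45 CPM) departed from it, with their highest means in mESC-2i. Those for 4 neural progenitor markers, 60.5 to 65.4, 106 to 115 and 33.6 to 36.7, had this order as well. Of these markers, Nes and Pax6 had the order of the sum. Sox1 (24.1, 6.81 and 1.23 mean CPM) was highest in mESC-2i, and Neurod1 was lowest there. For 4 mesoderm markers the sums were 85.3 to 107 in mESC-2i, then 12.7 to 15.2 and 2.82 to 4.29. They were led by T with means of 85.5, 4.38 and 1.35 CPM, whereas Kdr had 6.72, 8.71 and 0.0419 CPM and Mixl1 0.918, 0.430 and 1.91 CPM. The part of other cell types in the results above was not tested. The library kit does not keep strand, and 7 of the 9 genes, all but Lin28b and Mbnl1, share 86 to 338 exonic bases with a gene on the opposite strand, from which their reads cannot be told apart.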

How the data were processed

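RNA-seq libraries of 9 E14 samples (3 each of mESC-2i, mESC-ser and EpiLC) were analysed, grouped by the titles and state labels. Per the submitters' processing notes the authors used FastQC 0.11.0, Trim Galore 0.6.6, HISAT2 2.2.1 and Subread 2.0.1 with mm10, and deposited whole-number counts per Ensembl gene with no normalization. The annotation release, the strand setting and the handling of multiply mapped reads are not given in the sources used here. Columns of the table marked SL were taken as the serum/LIF samples.

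The 38293 identifiers were matched to GENCODE M21 (36429, 95.1%). The unmatched genes, which held 0.596% to 0.827% of a library's counts, stayed in the fits. Comparisons used edgeR 4.0.16, 1 fit for the 6 libraries of each pair, in R 4.3.3 (filterByExpr, TMM, glmQLFit and glmQLFTest), as the study names edgeR. Fold changes are log2 and their SE is the estimate divided by the square root of F. RPKM used the union of annotated exons, all isoforms included, so levels depend on the annotation. Let-7 sequences came from RefSeq and 3′ UTRs from GENCODE. All 9 members are named. Per list and comparison the text names the call that rose most and the one that fell most, provided that the CPM of the groups did not overlap and the higher one averaged 100 counts or more, and per member the 2 nearest genes. The result for 1 gene that this rule picks is not reported here. Other list genes (Tut4, Dis3l2, Igf2bp1, Nr6a1, Rbm47 in EpiLC, Mbnl3, Ago4, Tnnt2, Nrap, Clcn1, Fgfr2, Cd44, Hmgb1, Mir99ahg and Larp7) were named after their values were seen. The members and lists were chosen with earlier results of these data known, so their counts are descriptions. Scripts were tested on simulated data.

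Whether replicate numbers pair the samples was checked by the correlation of deviations from group means. Between the 2i and serum libraries, equal numbers gave 0.127, 0.18 and 0.34, all over 0.1, and were taken as possibly paired. Unequal numbers gave -0.276 to 0.144, which overlaps these values, so the check does not settle the pairing. The main fits hold no term for the replicate number, and the pairing enters only the alternative with a replicate block. For EpiLC the values were 0.022 to 0.109 against mESC-2i and 0.017 to 0.034 against mESC-ser. The labels call the replicates biological but do not say whether cultures were separate, so p-values measure the spread between these samples. No pair of replicates agreed within sampling noise (chi-square per degree of freedom 1.66 to 30.5). Alternatives tried were scaling by RLE, upper quartile or total counts, other filters, DESeq2 1.42.0, the exact test of edgeR, 1 fit to 9 libraries, the replicate block, the offset for length and GC (splines, 5 degrees of freedom), other thresholds and leaving out each replicate. The paralogue ratio differences under that offset were added after seeing the data.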

Additional observations from a re-analysis of the deposited data

Results flagged for a closer look

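Trim71 was picked out because its change against mESC-2i went opposite ways in the other 2 states, up in every mESC-ser library and down in every EpiLC library. The difference between these effects is the direct comparison of EpiLC with mESC-ser, a log2 fold change of -5.71 (edgeR adjusted p = 7.1e-14), and it ran from -6.12 to -4.94 over all 20 alternatives. With the length and GC offset it was -4.94. The mESC-2i libraries enter both effects, but not the direct comparison.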

How the results depend on the processing

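Of the values for single members under all alternatives, 496 kept their direction and side of the threshold, 15 passed it newly, 11 fell back and 16 changed sign. Among the last, EpiLC against mESC-ser with the length and GC offset gave 0.84 for Lin28b, without and with the replicate block, and 0.009 and 0.0054 for Mbnl2, while EpiLC against mESC-2i gave 0.49 and 0.497 for Mbnl2. The others were small values of Mbnl1 that were called on neither side. For mESC-ser against mESC-2i they were 0.0108 with RLE scaling, 0.0161 with no filter, 0.0398 with at least 10 counts in every library, 0.0111 with DESeq2 and 0.0084 in 1 fit to 9 libraries, and leaving out replicates gave -0.1524 to 0.1373, while total counts gave -0.121 against mESC-2i and -0.0607 against mESC-ser for EpiLC. The difference in the Lin28b to Lin28a log2 ratio with the offset, an alternative chosen after seeing the data, was -0.15 for mESC-ser against mESC-2i and 0.87 for EpiLC against mESC-ser, and the other 10 differences in paralogue ratio kept their sign. Raising the fold threshold to 1 left 4935 genes called for mESC-ser against mESC-2i and 3 members called for EpiLC against mESC-ser. The cause of these shifts was not tested, apart from the higher threshold itself. Leaving out replicates gave 8581 to 9391, 10608 to 11059 and 11183 to 11446 genes called, and 5, 6 to 7, and 5 members. With the replicate block 5, 7 and 5 members were called, among 8953, 10759 and 11207 genes, and no call of a member changed. Total-count scaling moved the median of all genes from -0.109 to -0.448 for EpiLC against mESC-2i and from -0.068 to -0.408 against mESC-ser, and called genes were then 33.7% and 37.4% higher, beside 45.9% and 48.4% with TMM. With the length and GC offset those medians were 0.148 and 0.138, with 54.6% and 55.5% of the called genes higher. Esrp1 could not be fitted with at least 10 counts in every library, since mESC-2i held 8 and 9. Depth limits Esrp1 in mESC-2i and Trim71 in EpiLC, whose levels rest on 8 to 9 and 31 to 60 counts.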
